A study of Mus musculus with 20 samples.

Results

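A set of 9 genes that mark microglia in their resting, surveying state was followed in the mouse microglial cell line BV-2: P2ry12, P2ry13, Mertk, Tmem119, Olfml3, Cx3cr1, Gpr34, Sall1 and Siglech. The members were found by matching their symbols to the Ensembl identifiers of the count table, and all 9 were among its 55487 identifiers. RNA was sequenced from 20 cultures in 4 groups of 5, young untreated, young LPS, aged untreated and aged LPS, all wild type. Aged cells came from long-term cultivation of the line and young cells, the controls, from a low passage. LPS, a bacterial lipopolysaccharide that activates Toll-like receptor 4, was given at 100 ng/ml for 6 hours. BV-2 is 1 immortalized line, made from brain cultures of young C57BL/6 mice, and its cells were grown without neurons, astrocytes or the other cells of the brain. Aged and young cells were kept as frozen aliquots and thawed together, so the cultures of a group are cultures of 1 cell stock. The labels give replicate numbers 1 to 5 as batches, so a batch consists of 4 cultures, 1 from each group.

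In the brain these genes serve contact between microglia and their surroundings. P2RY12 and P2RY13 are receptors for ADP, CX3CR1 binds the neuronal chemokine fractalkine, GPR34 binds lysophosphatidylserine and MERTK binds dying cells through bridging proteins. TMEM119 is a membrane protein, OLFML3 a secreted one, SIGLECH a lectin that signals through an adaptor, and SALL1 a transcription factor that maintains microglial identity. Their transcripts are known to decline when microglia leave the brain or meet an inflammatory stimulus.

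Reads counted per library totalled 11371508 to 16829292, with a median of 14370473. A gene with 3 counts or fewer in a library was treated as lying at its detection floor, which corresponds to 0.178 to 0.264 CPM (counts scaled by the total of their library) depending on depth. Markers of the myeloid lineage were all present, 12 of 12 above the floor in at least 1 library, with a summed level of 2918 to 6123 CPM. Of 8 neuron markers 2 exceeded the floor in any library, and their summed level stayed at or below 0.559 CPM, with Map2, Snap25, Syt1 and Gad1 at 0. Of 8 astrocyte markers 3 exceeded it, with a sum of at most 1.48 CPM and with Aqp4, Aldh1l1, Gja1 and Sox9 at 0. Of 8 oligodendrocyte lineage markers 2 exceeded it, with a sum of at most 1.89 CPM and with Mog, Olig1 and Pdgfra at 0. Among 6 endothelial markers Kdr and Flt1 were abundant, while Cldn5 and Tek were at 0 and Pecam1 and Cdh5 reached at most 5 and 3 counts.

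Of the 9 genes, Sall1 and Siglech were at the detection floor everywhere. Both had 0 counts in all 20 libraries, which over the 288237747 counts of the series allows a level of up to 0.0104 CPM. Gpr34 exceeded 3 counts in 6 libraries, P2ry12 in 12, Cx3cr1 in 16 and P2ry13 in 19. Tmem119, Olfml3 and Mertk exceeded it in all 20. By group, P2ry12 and Gpr34 were at the floor in the aged LPS cultures, where no library had more than 3 counts of either. Of the 9 genes 6 passed the filter on low counts and were tested. Gpr34, Sall1 and Siglech were not.

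Per kilobase of exon, Mertk was the most abundant of the genes in young untreated cultures, at 19.4 ± 0.81 CPM per kb (SD, n = 5). Tmem119 followed at 8.12 ± 1.23, Olfml3 at 2.90 ± 0.37 and P2ry13 at 1.56 ± 0.51 CPM per kb, and none of these neighbours overlapped. The length used joins all annotated exons of a gene, 2315 bp for Tmem119 and 6161 bp for Olfml3. Without division by length, Tmem119 at 18.8 ± 2.9 CPM and Olfml3 at 17.9 ± 2.3 CPM overlapped. P2ry12 at 0.490 ± 0.24, Cx3cr1 at 0.247 ± 0.15 and Gpr34 at 0.163 ± 0.076 CPM per kb overlapped each with the next. The first 4 genes kept this order in aged untreated cultures, with Mertk at 14.5 ± 1.13 and P2ry13 at 0.806 ± 0.30 CPM per kb. Under LPS the order changed in young cultures, where Olfml3 at 1.38 ± 0.21 stood above Tmem119 at 0.907 ± 0.28 CPM per kb with overlapping ranges. In aged LPS cultures Mertk at 2.35 ± 0.37, Tmem119 at 1.44 ± 0.37 and Olfml3 at 0.856 ± 0.19 CPM per kb each overlapped with the next.

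**Figure D1:**
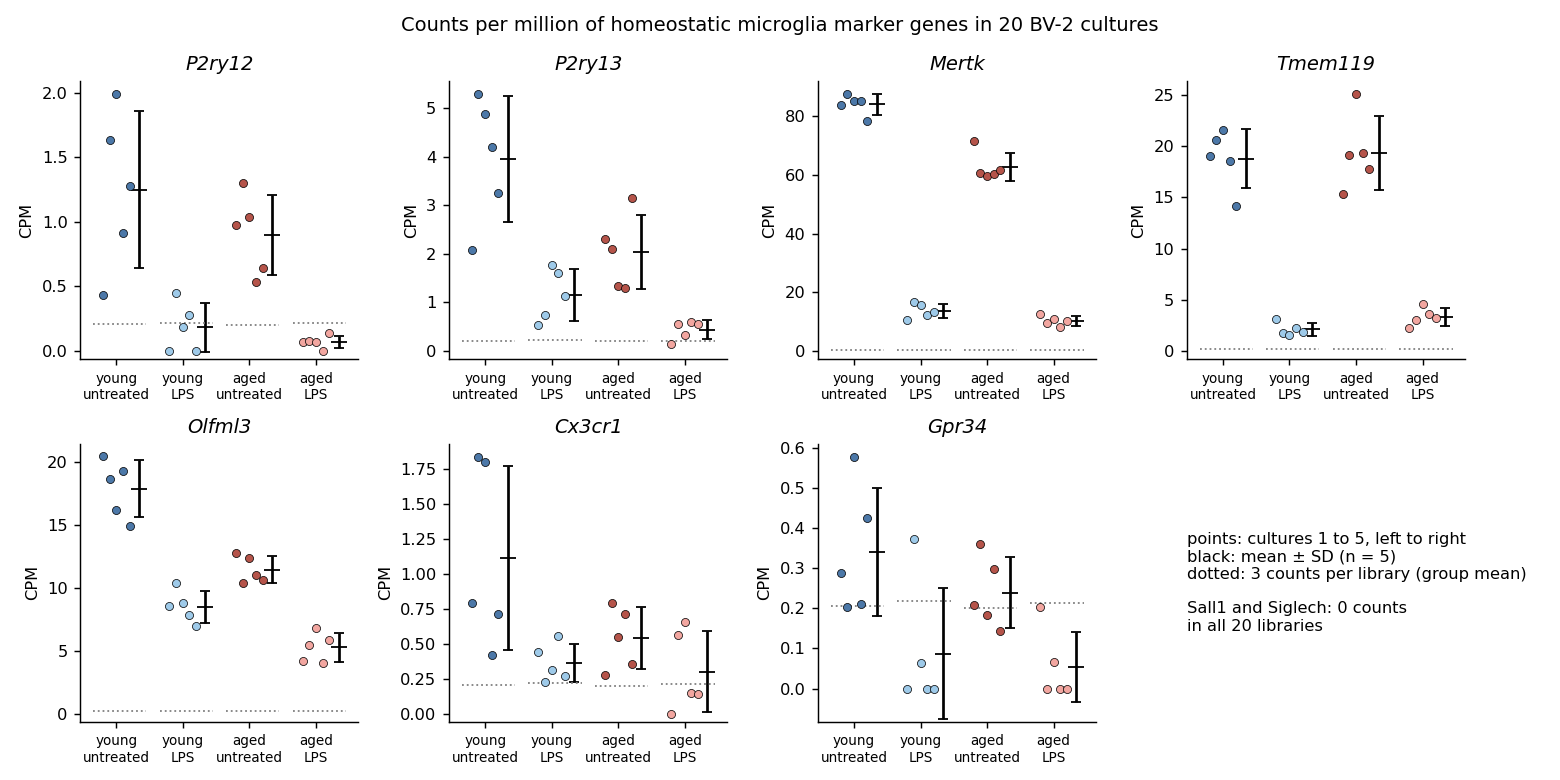
CPM (vertical axes, linear, with a scale for each gene) of the 7 genes with any counts in the 20 BV-2 cultures. Points are cultures 1 to 5 from left to right in each group, black marks the mean ± SD (n = 5) and dotted lines the floor of 3 counts. Mertk in untreated cultures lay between 59.6 and 87.6 CPM and in LPS-treated cultures between 8.05 and 16.8 CPM. P2ry12, Cx3cr1 and Gpr34 reached at most 1.99 CPM in untreated and 0.656 CPM in LPS-treated cultures.

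P2ry12 and P2ry13 encode the ADP receptors of microglia. Both couple to inhibitory G proteins, and P2RY12 guides microglial processes towards sites of injury. The genes are neighbours on the minus strand of chromosome 3 (GRCm38), P2ry12 (ENSMUSG00000036353) at 59216272 to 59262871 and P2ry13 (ENSMUSG00000036362) at 59207892 to 59210882, with 5390 bp between them. Both lie within or across Med12l on the opposite strand. The exons of P2ry12 share 9 bp with those of Med12l, and those of P2ry13 share 0 bp. The 250 bases before the RefSeq start of each gene (GRCm38.p6, minus strand, 5′ to 3′) are shown because the genes are adjacent and both were lower under LPS. P2ry12 covers chr3:59262986-59263235 and P2ry13 chr3:59210883-59211132, and capitals mark AGGAAG, a core bound by PU.1 and other ETS factors, searched on both strands.
P2ry12: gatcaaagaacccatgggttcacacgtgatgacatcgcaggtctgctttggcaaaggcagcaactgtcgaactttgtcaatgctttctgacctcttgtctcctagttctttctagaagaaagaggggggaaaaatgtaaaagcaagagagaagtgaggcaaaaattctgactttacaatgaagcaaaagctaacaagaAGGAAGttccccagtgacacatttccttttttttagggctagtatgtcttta
P2ry13: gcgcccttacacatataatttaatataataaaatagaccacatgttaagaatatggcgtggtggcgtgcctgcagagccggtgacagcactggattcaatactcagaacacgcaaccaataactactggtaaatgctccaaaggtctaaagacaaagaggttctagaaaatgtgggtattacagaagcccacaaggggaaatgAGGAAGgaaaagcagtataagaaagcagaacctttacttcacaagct
The motif began 52 bases before the start of P2ry12 and 47 bases before that of P2ry13. It occurs in 9686 of 32851 mouse windows of this length (29.5%), so a match is common. A promoter entry was found for 7 of the 9 genes, and the motif was also present upstream of Olfml3 and in 1 of 3 windows of Sall1.

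P2ry13 was lower in aged than in young untreated cultures. Counts were 29, 78, 76, 60 and 46 in young cultures 1 to 5 and 33, 29, 22, 22 and 44 in aged ones, or 3.95 ± 1.30 and 2.04 ± 0.76 CPM. The lowest young culture, number 1, lay within the aged range, so the groups overlapped, and P2ry13 was lower in 4 of 5 batches. The log2 fold change was -0.99 ± 0.28 (SE, edgeR, adjusted p = 0.0228). This call was lost without young untreated culture 2 (adjusted p = 0.0764) or 3 (0.0692) or aged untreated culture 3 (0.053) or 4 (0.0736).

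P2ry13 was also lower under LPS at both ages. LPS-treated young cultures had 6, 10, 28, 23 and 17 counts and aged ones 2, 7, 5, 8 and 8, and neither range overlapped that of its untreated group. The log2 fold change was -1.51 ± 0.30 in young (adjusted p = 1.52e-04) and -2.05 ± 0.40 in aged cultures (adjusted p = 1.46e-04). Among LPS-treated cultures, P2ry13 was lower in aged than in young cells in 5 of 5 batches, with overlapping ranges (log2 fold change -1.53 ± 0.43, adjusted p = 0.0102).

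P2ry12 fell under LPS to or near the floor. Counts were 6, 24, 31, 13 and 18 in young untreated cultures and 0, 6, 3, 4 and 0 in young LPS cultures, where culture 2 had as many counts as the lowest untreated culture. The log2 fold change in young cultures was -2.49 ± 0.51 (adjusted p = 1.90e-04). Aged untreated cultures had 14, 18, 17, 9 and 9 counts and aged LPS cultures 1, 1, 1, 0 and 2. The aged groups did not overlap, and against the floor P2ry12 was at least 4.19-fold lower under LPS in aged cultures (adjusted p = 1.67e-04).

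Between aged and young cultures P2ry12 did not pass the test. The untreated groups, 1.25 ± 0.61 CPM in young and 0.898 ± 0.31 CPM in aged cultures, overlapped (log2 fold change -0.51 ± 0.37, 95% confidence interval -1.28 to 0.25, adjusted p = 0.414). With LPS both means were below the floor, and no fold is given (adjusted p = 0.286). At 6 to 31 counts per untreated library, a difference of the size seen for P2ry13 was within this interval.

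Partners of the ADP receptors were measured from a list of 10 genes, of which 7 were tested. In aged untreated cultures 3 were lower and 0 higher, where 7.81% of all genes were called lower and 3.71% higher. The 3 partners were Entpd1, the ectonucleotidase CD39 that degrades ATP and ADP (-1.28, adjusted p = 0.00169), P2ry6, the UDP receptor (-0.97, adjusted p = 0.0114), and Gnai2, an inhibitory G protein subunit (-0.24, adjusted p = 6.24e-04). Under LPS in young cultures 3 were lower, Entpd1 (-1.21), P2rx7 (-0.35) and Gnai2 (-0.28), and 3 higher, Adora2a, P2rx4 (0.68) and Gnai3 (0.31) (log2 fold changes). In aged cultures Entpd1 and Gnai2 were again lower and Adora2a, P2rx4 and Gnai3 higher under LPS. Of all genes 64.6% were called under LPS in young and 54.4% in aged cultures. Adora2a, an adenosine receptor, was at the floor in all untreated cultures and reached 3.65 ± 1.0 CPM in young and 1.77 ± 0.43 CPM in aged LPS cultures, at least 17.6-fold and 8.83-fold higher. Among LPS-treated cultures 6 of the 7 partners, all except P2rx7, were lower and 0 higher in aged cells, where 15.0% of all genes were called lower and 14.0% higher. Nt5e, the ectonucleotidase CD73, had 0 counts everywhere. Near P2ry12, the related receptor genes P2ry14 and Gpr171 also had 0 counts, and Med12l was lower under LPS in young cultures (-1.03, adjusted p = 0.0131). In aged cultures its value was -0.47 (adjusted p = 0.27), and the difference between the ages did not pass the test (adjusted p = 0.615). Strand settings of the counting are not given in the sources used here, so reads of Med12l and of P2ry12 cannot be fully told apart.

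Mertk, the receptor kinase through which microglia engulf dying cells, was measured with the most counts of the 9 genes, 107 to 1326 per library. Mertk (ENSMUSG00000014361) lies on chromosome 2 at 128698956 to 128802894 (GRCm38, plus strand). Levels were 83.9, 87.6, 85.1, 85.2 and 78.2 CPM in young untreated cultures and 71.4, 60.7, 59.6, 60.2 and 61.6 CPM in aged ones. Every aged culture lay below every young one, and the log2 fold change was -0.44 ± 0.089 (adjusted p = 0.00231).

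Under LPS, Mertk fell to 10.6, 16.8, 15.5, 12.3 and 13.3 CPM in young cultures and to 12.4, 9.50, 10.8, 8.05 and 10.2 CPM in aged ones. Neither range came near that of the untreated cultures. The log2 fold changes were -2.39 ± 0.10 in young (adjusted p = 2.89e-15) and -2.46 ± 0.10 in aged cultures (adjusted p = 6.46e-15). Their difference was -0.064, with an interval from -0.36 to 0.23. Among LPS-treated cultures Mertk was lower in aged cells in 4 of 5 batches, with overlapping ranges (-0.51 ± 0.11, adjusted p = 0.00147).

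Its relatives and ligands were scarce in untreated cultures. Axl, another receptor of the same family, rose under LPS from 0.495 ± 0.13 to 5.06 ± 1.3 CPM in young cultures (log2 fold change 3.55, adjusted p = 1.59e-09) and from 0.166 ± 0.15 to 1.32 ± 0.67 CPM in aged ones (3.06, adjusted p = 6.95e-06). The aged untreated mean of Axl lay below the mean floor of its group, 0.200 CPM, so the size of the aged rise is uncertain. Aged LPS cultures held less Axl than young ones (-1.99, adjusted p = 1.07e-05). Tyro3, the third receptor, and the bridging proteins Gas6 and Pros1 had at most 2, 0 and 1 counts in any library.

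Tmem119 (ENSMUSG00000054675), on chromosome 5 at 113793729 to 113800516 (minus strand), was the only one of the 4 best measured genes that showed no call between aged and young untreated cultures. Levels were 19.0, 20.6, 21.6, 18.6 and 14.2 CPM in young and 15.4, 19.1, 25.1, 19.3 and 17.7 CPM in aged cultures. The ranges overlapped throughout, and the log2 fold change of 0.02 ± 0.15 had a 95% confidence interval of -0.29 to 0.33 (adjusted p = 0.954). LPS lowered Tmem119 to 3.17, 1.72, 1.51, 2.22 and 1.88 CPM in young cultures (-2.97 ± 0.19, adjusted p = 5.88e-12) and to 2.23, 3.03, 4.59, 3.61 and 3.25 CPM in aged ones (-2.37 ± 0.18, adjusted p = 1.37e-10). No LPS-treated culture reached the untreated range at either age.

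Under LPS, Tmem119 was higher in aged than in young cultures, in 4 of 5 batches and with overlapping ranges (0.62 ± 0.23, adjusted p = 0.0459). This call was lost in 14 of 20 fits with 1 library left out: without young untreated culture 1, 2 or 4, young LPS culture 2, 3, 4 or 5, aged untreated culture 2, 4 or 5, or aged LPS culture 2, 3, 4 or 5, with adjusted p values up to 0.145. It was also lost with DESeq2's size factors (adjusted p = 0.0523) and in a fit of the LPS-treated groups alone (0.0688). The LPS responses of aged and young cultures differed by 0.60 ± 0.27, with an interval of 0.03 to 1.17, and this difference did not pass the adjustment (adjusted p = 0.226).

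Olfml3 (ENSMUSG00000027848), on chromosome 3 at 103722222 to 103738001 (minus strand), differed in all 4 comparisons of groups. Untreated cultures held 20.5, 18.6, 16.2, 19.3 and 14.9 CPM when young and 12.8, 10.4, 12.4, 11.1 and 10.7 CPM when aged. LPS-treated cultures held 8.53, 10.4, 8.81, 7.84 and 6.99 CPM when young and 4.19, 5.43, 6.82, 4.06 and 5.88 CPM when aged. The aged range lay below the young one with and without LPS, and each LPS range lay below its untreated one. The aged against young log2 fold change was -0.66 ± 0.13 without LPS (adjusted p = 0.00142) and -0.76 ± 0.14 with it (adjusted p = 3.45e-04). LPS changed Olfml3 by -0.85 ± 0.13 in young (adjusted p = 4.98e-06) and -0.95 ± 0.14 in aged cultures (adjusted p = 4.99e-06), smaller decreases than those of Mertk and Tmem119.

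Cx3cr1 (ENSMUSG00000052336), on chromosome 9 at 119901616 to 120069879 (minus strand), was measured with few counts, and its exons share 78 bp with the antisense gene Gm33858. Young untreated cultures had 11, 27, 28, 6 and 10 counts, aged untreated cultures 4, 11, 9, 12 and 5, young LPS cultures 5, 3, 5, 8 and 4, and aged LPS cultures 0, 7, 10, 2 and 2. Young untreated cultures 2 and 3 stood above all others, and the groups overlapped in all 4 comparisons. LPS lowered Cx3cr1 in young cultures (-1.41 ± 0.49, adjusted p = 0.0158), a call lost without young untreated culture 2 (adjusted p = 0.0563) or 3 (0.0572). The other comparisons did not pass: -1.06 ± 0.44 for aged against young untreated (adjusted p = 0.131), -0.68 ± 0.58 for LPS in aged cultures (0.333) and -0.33 ± 0.63 for aged against young LPS (0.745).

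Of the fractalkine partners, the ligand Cx3cl1 had at most 1 count per library. The sheddases that release it moved in opposite directions under LPS. Adam17 rose by 1.36 in young and 1.26 in aged cultures, and Adam10 fell by 0.58 and 0.47 (log2, adjusted p of at most 1.40e-07 for each). Neither passed the test between aged and young untreated cultures. Among LPS-treated cultures Adam17 was lower in aged cells (-0.19, adjusted p = 4.09e-04) and Adam10 was not called (adjusted p = 0.666).

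Gpr34 (ENSMUSG00000040229), on the X chromosome at 13632089 to 13640858 (plus strand) within Cask on the opposite strand, had 4, 3, 9, 3 and 6 counts in young untreated and 3, 5, 3, 5 and 2 in aged untreated cultures. With LPS it had 0, 5, 1, 0 and 0 counts in young and 3, 0, 1, 0 and 0 in aged cultures. Most untreated cultures thus lay at or slightly above the floor and most LPS-treated ones below it, and no test was made. Enzymes that make or degrade its ligand, lysophosphatidylserine, were tested. Abhd12, a lipase that degrades it, fell under LPS by 0.64 in young and 0.54 in aged cultures (log2). Pla1a, a phospholipase that forms it, rose by 3.68 and 1.75 from means of 0.177 and 0.43 CPM (log2, adjusted p = 3.30e-08 and 2.51e-04). The young mean lay below the mean floor of its group, 0.207 CPM, so the size of the young rise is uncertain. The difference between the ages in the Pla1a response did not pass the adjustment (adjusted p = 0.0555). Abhd6 was lower (-0.96) and Abhd16a higher (0.19) under LPS in young cultures (log2 fold changes). Among LPS-treated cultures Abhd6 was higher (1.16) and Abhd16a lower (-0.34) in aged cells. Without LPS 0 of the 4 enzymes were called between aged and young cultures, where 11.5% of all genes were called.

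Siglech (ENSMUSG00000051504) lies on chromosome 7 at 55768178 to 55778925 (plus strand) and Sall1 (ENSMUSG00000031665) on chromosome 8 at 89027235 to 89044162 (minus strand). Although Siglech was at 0, Tyrobp, the adaptor that SIGLECH signals through, was abundant, at 367 ± 71 CPM in young and 286 ± 34 CPM in aged untreated cultures (-0.38, adjusted p = 0.0643). Other lectins of the family were present. Siglec1, Cd33 and Siglece were lower in aged untreated cultures (-1.01, -0.46 and -1.37, adjusted p = 0.00187, 0.0315 and 0.0210). LPS raised Siglece and Siglec1 and lowered Cd33 at both ages, by 3.29, 0.84 and -1.03 in young cultures (log2 fold changes). Of the relatives of Sall1, Sall3 was measured at 32.8 ± 3.2 CPM in young untreated cultures and was lower under LPS in young cells (-0.40, adjusted p = 0.00191), Sall2 was at 0.613 ± 0.22 CPM and Sall4 had 0 counts.

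Counted together, 3 of the 6 tested genes were lower and 0 higher in aged cultures without LPS, where 11.5% of all 12799 genes tested were called, 7.81% lower and 3.71% higher. They were P2ry13, Olfml3 and Mertk. Under LPS all 6 were lower in young cultures, where 64.6% of genes were called, 33.5% lower and 31.2% higher, and 5 of 6 were lower in aged cultures, where 54.4% were called, 26.9% lower and 27.5% higher. Among LPS-treated cultures 3 were lower and 1, Tmem119, higher in aged cells, where 29.0% were called, 15.0% lower and 14.0% higher. Of these 4 calls, those of Olfml3 and Mertk also stood in a fit of the LPS-treated groups alone, in which P2ry13 was not tested after the filter on low counts and Tmem119 was not called (adjusted p = 0.0688). The medians of the 6 genes were -0.59, -1.95, -2.06 (with P2ry12 at its bound) and -0.64, against -0.014, -0.011, 0.0005 and 0.0085 for all genes tested. The groups of culture values did not overlap for 2, 4, 5 and 1 of the 6 genes, where this held for 10.5%, 54.1%, 44.9% and 17.9% of all genes. For the difference of the LPS responses 0 of 6 genes were called by edgeR or DESeq2, where edgeR called 6.39% of all genes. Tmem119 alone had an unadjusted p below 0.05 in edgeR (0.0394).

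**Figure D2:**
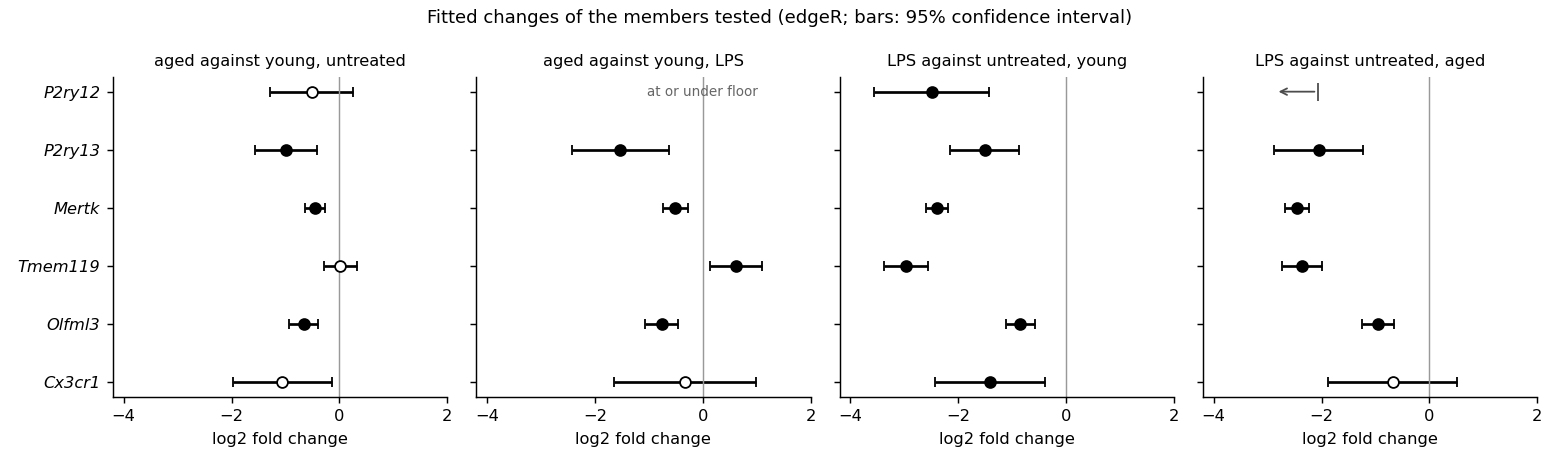
Log2 fold changes (horizontal axes) of the 6 tested genes in 4 comparisons, from edgeR, with bars for the 95% confidence interval. Filled points have an adjusted p below 0.05, the arrow marks the bound of P2ry12 at -2.07 and no fold is drawn for P2ry12 between LPS-treated groups. All 6 genes lie below 0 under LPS in young cultures, and Tmem119 alone lies above 0 between aged and young cultures.

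Other genes of the homeostatic signature were called in both directions under LPS. Of 31 such genes 22 were tested. In aged untreated cultures 11 were lower and 0 higher, with a median of -0.33. Of all genes 7.81% were called lower and 3.71% higher there. Among the 11 were Fcrls, an Fc receptor-like microglial gene (-1.42, adjusted p = 0.00363), Ltc4s, leukotriene C4 synthase (-1.33, adjusted p = 3.00e-04), Lpcat2, a lysophospholipid acyltransferase (-0.71), and Vsir, the checkpoint protein VISTA (-0.65). Under LPS 12 were lower and 5 higher in young cultures, and 10 were lower and 4 higher in aged ones, with medians of -0.34 and -0.20, where 64.6% and 54.4% of all genes were called. The largest decreases in young cultures were those of Adgrg1, an adhesion receptor (-2.49), Vsir (-2.34), Rnase4 (-2.03) and Cd81 (-1.51), and the largest increase was that of Lpcat2 (0.81). Among LPS-treated cultures 9 were lower and 1 higher in aged cells, where 29.0% of all genes were called. Of the 31 genes 8 were at the floor in all libraries, Pmepa1 with 0 counts, beside Sall1 and Siglech.

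Of 13 transcription factors of microglia, all tested, 5 were lower and 0 higher in aged untreated cultures. Of all genes 7.81% were called lower and 3.71% higher there. Among the 5 factors were Cebpa (-0.58, adjusted p = 0.00104), Runx1 (-0.34) and Irf8 (-0.26). Under LPS 7 were lower and 2 higher in young cultures, with Cebpa (-1.94), Mef2c (-1.89) and Smad3 (-1.34) among the lower and Spi1, which encodes PU.1, higher (1.23). In aged cultures 7 were lower and 3 higher. Of all genes 64.6% were called under LPS in young and 54.4% in aged cultures. Among LPS-treated cultures 5 factors were lower and 1 higher in aged cells, where 29.0% of all genes were called.

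Genes that mark disease-associated microglia, a state in which homeostatic genes are known to be low, were called in both directions. Of 18 tested, 3 were higher and 2 lower in aged untreated cultures, where 11.5% of all genes were called. The calls were Spp1 (0.55), Cst7 (0.32) and Lpl (0.26) against Clec7a (-0.80) and Apoe (-0.80). Under LPS 8 were higher and 3 lower in young cultures and 5 higher and 4 lower in aged ones, where 64.6% and 54.4% of all genes were called, so neither total of calls stood above the background. Axl and Csf1 rose the most in both, and Clec7a and Trem2 fell the most. Among LPS-treated cultures 0 were higher and 5 lower in aged cells, where 29.0% of all genes were called. All 6 genes of a list of LPS targets (Il1b, Tnf, Il6, Nos2, Ccl5 and Cxcl10) rose under LPS at both ages, Tnf by 5.07 in young and 4.74 in aged cultures (log2). All 6 were lower in aged than in young LPS cultures, where 15.0% of all genes were called lower. Without LPS 3 of the 6, Nos2, Cxcl10 and Tnf, were called lower in aged than in young cultures. Aged untreated cultures were at the floor for Nos2 and Il6, and against the floor Nos2 was at least 8.06-fold lower. Ccl5 was not called (-2.55, adjusted p = 0.0661). Il6 and Il1b were not called either. Their confidence intervals, -10.0 to 2.96 and -5.67 to 2.09, covered both directions, so no direction is given for them. For the difference of the LPS responses 0 of the 6 were called, where 6.39% of all genes were called. The values of Nos2 and Il6 in this comparison rest on aged untreated cultures at the floor, so their direction is not given.

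**Figure D3:**
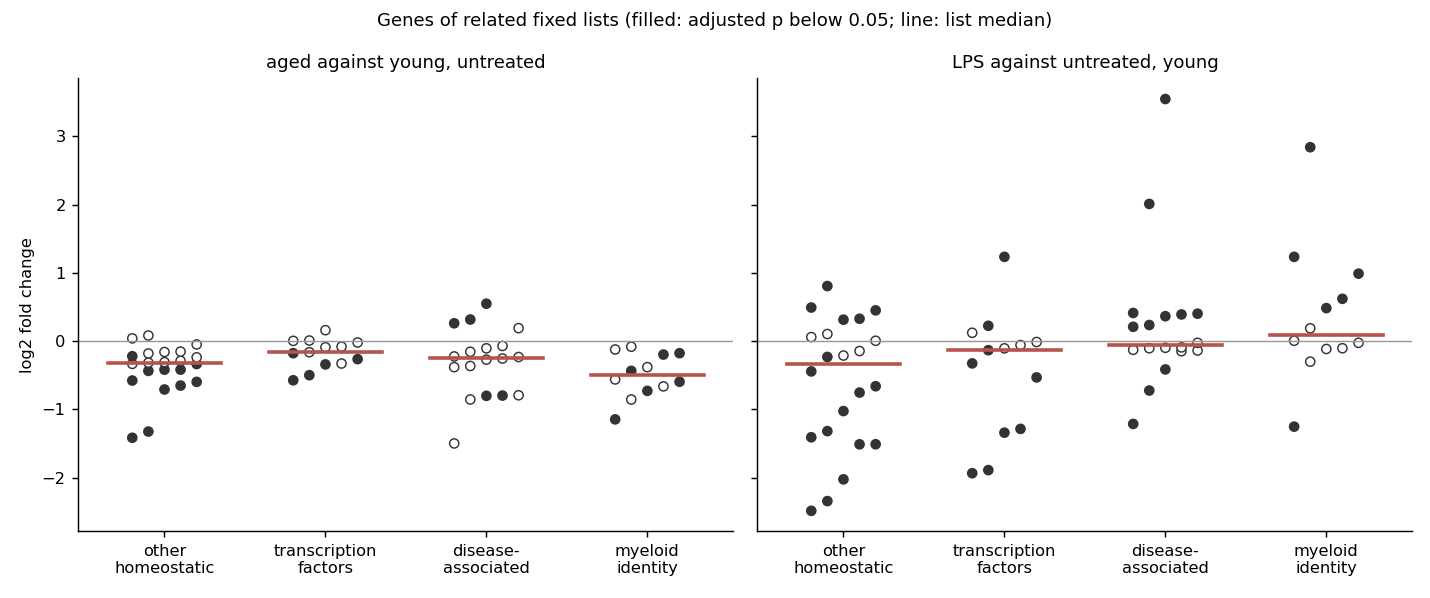
Log2 fold changes (vertical axis) of the tested genes of 4 lists, between aged and young untreated cultures (left) and between LPS-treated and untreated young cultures (right). Filled points have an adjusted p below 0.05 and lines are list medians. Between aged and young cultures 11 of 22 other homeostatic genes and 6 of 12 myeloid markers were called lower and 0 higher, whereas under LPS the lists contain genes called in both directions. Of all genes 7.81% were called lower and 3.71% higher in the left comparison, and 64.6% were called in the right one.

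General markers of the lineage moved with age as well. Of 12 myeloid markers 6 were lower and 0 higher in aged untreated cultures, where 7.81% of all genes were called lower and 3.71% higher. The median of the 12 markers was -0.50. The largest called decreases were those of Aif1, which encodes IBA1 (-1.15, adjusted p = 2.21e-04), Fcgr3 (-0.73) and Adgre1 (-0.60). The summed level of the 12 markers was 3546 to 5815 CPM in young untreated, 2918 to 4818 in aged untreated, 4067 to 6123 in young LPS and 3394 to 5267 CPM in aged LPS cultures. Under LPS 5 of the 12 were higher and 1 lower at either age. Of all genes 64.6% were called under LPS in young and 54.4% in aged cultures, so neither total of calls stood above the background. Of 8 markers of border macrophages and monocytes 4 were tested, and Ms4a7 (-1.64), Mrc1 (-1.06) and F13a1 (-0.93) were lower in aged untreated cultures. Their sum was 126 to 176 CPM in young untreated, 57.9 to 110 in aged untreated, 75.0 to 110 in young LPS and 35.3 to 82.9 CPM in aged LPS cultures, with Cd163 and Ly6c2 at 0. Kdr, of the endothelial list, was also lower in aged untreated cultures (-0.45, adjusted p = 1.01e-04). Flt1, the other endothelial marker tested, was not called (0.06, adjusted p = 0.551). In bulk cultures, fewer cells that express a gene and less RNA per cell cannot be told apart. The part of these markers in the lower P2ry13, Olfml3 and Mertk of aged cultures was not tested.

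The genes closest to each tested member in pattern were taken as those with the smallest root mean square difference in centred log2 CPM over the 20 libraries, among 10883 genes. Mertk was nearest to Gpr160, an orphan receptor (0.163), Sesn1 (0.245) and Rnase4 (0.299). Olfml3 was nearest to Hfe (0.243), Gatm (0.243) and Phyhd1 (0.249), and Tmem119 to Klhl6 (0.296), Deptor (0.301) and Pald1 (0.309). The low-count genes had no neighbour as near. P2ry13 was nearest to Slc13a3 (0.487), Clec7a (0.541) and Iqsec3 (0.559), P2ry12 to Pax3 (0.527), A130077B15Rik (0.532) and Mfsd6 (0.561), and Cx3cr1 to Atp9a (0.534), Zfyve28 (0.539) and Cd300lg (0.559).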

How the data were processed

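Poly(A) RNA of the 20 BV-2 cultures was sequenced as paired-end reads from libraries made with a stranded Illumina kit. The authors aligned the reads to GRCm38 with STAR 2.6.1d, counted them per gene with featureCounts 1.5.1 and deposited whole-number counts per Ensembl gene without normalization. The strand, multiple-alignment and overlap settings are not given in the sources used here. The submitters' processing notes also name human builds. Of 55487 identifiers, 55141 had a symbol and 55227 an exon length in GENCODE vM21.

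Counts were tested with the quasi-likelihood F-test of edgeR 4.0.16 (under R 4.3.3) after TMM normalization and filterByExpr, which kept 12799 genes. All 20 libraries entered 1 fit with the group as the only factor. Benjamini-Hochberg adjustment ran over the 12799 genes, and a gene was called where its adjusted p was below 0.05. Standard errors are those implied by the F statistic. CPM values use library totals. A fold against a group with no more than 3 counts per library is a bound, taken against the mean floor of that group. Floors cover counting error only, and p-values the spread between cultures of this 1 line. Totals of 11371508 to 16829292 counts per library make 1 count worth less than 0.1 CPM. The fits were tested on simulated data.

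Replicate numbers are batch numbers in the labels, so they pair the cultures. Across genes, the deviations from group means of cultures that share a number correlated by 0.146 on average (-0.21 to 0.39 over pairs of groups). As alternatives, the Wald test of DESeq2 1.42.0, a replicate block in either tool, other scaling (size factors of DESeq2, or totals alone), no filter, at least 10 counts in every sample, the compared groups only, a threshold of 0.01 and the omission of each library in turn were tried.

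The members and gene lists were chosen with earlier results of these data known. Named genes are every member, every gene of the partner lists, up to 4 called genes with the largest change per direction and comparison in the other lists, and the 3 genes nearest in pattern to each tested member, among genes whose mean log2 CPM was 1 or more. Some genes of the lists are not reported here by name. Promoter windows came from RefSeq (GRCm38.p6). Python 3.11.15 with pandas 2.3.3 and matplotlib 3.10.9 served for tables and plots.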

Additional observations from a re-analysis of the deposited data

Results flagged for a closer look

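Within groups of 5 cultures, 28 group and gene pairs were examined for a culture far from the other 4, and 2 were found. Chance would give about 1 in 20 for normally distributed values, a rate that need not hold for low counts such as those of Gpr34. Gpr34 in young LPS culture 2 was at 0.374 CPM (5 counts), with the next culture at 0.063 CPM, and that culture was also the highest of its group for P2ry12, Mertk and Olfml3. Mertk in aged untreated culture 1 was at 71.4 CPM, with the next culture at 61.6 CPM. Without this culture the aged against young log2 fold change of Mertk was -0.49 (adjusted p = 0.00187).

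The LPS response differed between aged and young cultures for 4 of 95 tested genes of the lists (4.21%), by edgeR's test of the difference itself, which called 6.39% of all genes. The total for the lists thus did not stand above the background. With the replicate block 9 of the 95 were called, and with DESeq2 7 of 88 with an adjusted p, and the 4 were among them in both. The difference, aged minus young, was 0.63 for Cebpa (adjusted p = 0.0146), 0.58 for Smad3 (adjusted p = 0.0347), 0.78 for Vsir (adjusted p = 0.0326) and -0.39 for Ptprc (adjusted p = 0.00409). Cebpa, Smad3 and Vsir fell less under LPS in aged than in young cultures, and Ptprc, the pan-leukocyte phosphatase CD45, rose less.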

How the results depend on the processing

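No member's call changed with the replicate block, in edgeR or in DESeq2. With at least 10 counts in every sample the calls under LPS were 3 in young and 3 in aged cultures, since 3 members were left to test. Between aged and young LPS cultures, 2 members, Olfml3 and Mertk, were called in a fit of these groups alone, where P2ry13 was not tested and Tmem119 was not called (adjusted p = 0.0688), and 2 at a threshold of 0.01, where P2ry13 (adjusted p = 0.0102) and Tmem119 were not called. Called genes of the lists in the difference of LPS responses were 7 with DESeq2 and 9 with the replicate block, against 4. With a floor of 10 counts, 17 instead of 10 pairs of member and group were at the floor. TMM-scaled CPM gave Mertk 79.3 in young untreated cultures against 84.0 CPM. With library sizes alone the median of all genes moved by -0.22 under LPS in young and -0.16 in aged cultures, and no member's call or direction changed.

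With each library left out in turn, 2 to 3 members were called between aged and young untreated cultures, 5 to 6 and 5 under LPS in young and aged cultures, 3 to 4 between LPS-treated groups and 0 for the difference. Directions turned only for uncalled values. Tmem119 between untreated groups ranged from -0.097 to 0.094 and was negative without young untreated culture 5 (-0.066) or aged untreated culture 3 (-0.097). Cx3cr1 between LPS-treated groups ranged from -0.89 to 0.0021, the latter without aged LPS culture 1. The difference of responses of Mertk ranged from -0.15 to 0.019 and was positive without young LPS culture 2 (0.019) or aged LPS culture 4 (0.012). The cause was not tested. Depth limits P2ry12, Cx3cr1 and Gpr34, with at most 31 counts in a library.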
